A study of Mus musculus with 8 samples.

Results

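The genes described here are Ly6a, Ly6c1, Ly6c2 and Ly6e, 4 genes of the lymphocyte antigen 6 (Ly6) group that code for proteins on the outer face of the plasma membrane. They were taken by symbol from a table of 35852 genes measured in bEnd3 cells, an immortalised line of mouse brain endothelial cells, and all 4 were among the 13272 genes with enough counts to be tested. They were chosen with their response to corticosterone known, so their values are given as a description and without a test. Corticosterone is the main glucocorticoid hormone of mice. The values below are estimated counts, CPM (counts per 1e+06 of the scaled library), TPM (abundance per 1e+06 transcripts, corrected for length) and the log2 fold change of corticosterone over medium.

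The study compared 4 libraries from bEnd3 cells given 5 µM corticosterone for 24 h with 4 libraries from bEnd3 cells in culture medium. The cells of both groups had been seeded and grown overnight in DMEM with fetal calf serum, and no genotype differs between them. The labels name no vehicle for the medium samples, and their treatment protocol also names corticosterone, so the group was taken from the titles and the treatment field. All libraries come from 1 cell line, and nothing in the labels says whether the replicates were separate cultures, so the spread between them may be technical. Corticosterone replicates 1 and 2 were quantified with other effective transcript lengths than the other 6 libraries, so results are also given without them.

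Ly6 proteins are small, share a fold held together by disulfide bonds (the LU domain) and are fixed to the membrane by a glycosylphosphatidylinositol (GPI) anchor. In the mouse, most of their genes lie side by side on chromosome 15, and Ly6a and Ly6e are known as interferon-inducible genes. Ly6a codes for Sca-1, a marker of stem cells and of vascular endothelium, which in brain endothelium also serves as the receptor of engineered AAV-PHP.B gene therapy capsids. Ly6c1 is a marker of brain endothelium, Ly6c2 is best known from monocytes, and Ly6e is the receptor of the placental fusion protein syncytin-A and restricts coronavirus entry.

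The sequences below are shown because the similarity of 3 of the genes bears on every value that follows. They are the first 150 coding bases of Ly6c1 and the stretches of the other 3 genes aligned to them, read from the GENCODE M21 transcripts Ly6c1-201, Ly6c2-201, Ly6a-204 and Ly6e-215. Capitals mark bases that differ from Ly6c1. On GRCm38 the stretches lie at chr15:75047390-75048511 on the minus strand (Ly6c1), chr15:75110548-75111667 on the minus strand (Ly6c2), chr15:74996489-74997604 on the minus strand (Ly6a) and chr15:74957808-74958351 on the plus strand (Ly6e). Each of these genomic spans includes an intron that is not printed.
Ly6c1: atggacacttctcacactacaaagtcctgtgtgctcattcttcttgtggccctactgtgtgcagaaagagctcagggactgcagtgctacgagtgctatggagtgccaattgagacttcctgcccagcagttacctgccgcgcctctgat
Ly6c2: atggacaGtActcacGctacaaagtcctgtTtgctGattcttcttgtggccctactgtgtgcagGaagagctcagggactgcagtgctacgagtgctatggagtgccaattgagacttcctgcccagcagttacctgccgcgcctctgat
Ly6a: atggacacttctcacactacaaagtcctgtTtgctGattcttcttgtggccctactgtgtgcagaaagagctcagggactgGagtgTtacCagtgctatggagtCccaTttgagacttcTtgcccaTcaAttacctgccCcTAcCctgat
Ly6e: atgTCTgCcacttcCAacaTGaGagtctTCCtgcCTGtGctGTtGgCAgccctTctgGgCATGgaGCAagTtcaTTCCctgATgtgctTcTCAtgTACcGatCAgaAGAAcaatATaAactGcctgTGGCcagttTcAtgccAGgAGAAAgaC

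Within this stretch Ly6c2 differed from Ly6c1 in 6 aligned columns, Ly6a in 14 and Ly6e in 73. Over the whole coding sequence, Ly6c1 and Ly6c2 were identical in 384 of 393 columns (97.7%). Ly6a matched Ly6c1 in 81.8% and Ly6c2 in 81.6% of columns, whereas Ly6e matched the other 3 genes in 49.5% to 52.2%. Stretches of 31 bases (31-mers), the word length used to gauge which reads can be told apart, also set Ly6e apart over whole annotated transcripts. Pooled over all transcripts of a gene, the share of 31-mers found in no other gene was 68.1% for Ly6a, 53.2% for Ly6c1, 76.2% for Ly6c2 and 99.6% for Ly6e. For the transcripts printed above it was 77.9% (Ly6a-204), 42.9% (Ly6c1-201), 46.2% (Ly6c2-201) and 98.6% (Ly6e-215). The pooled share of Ly6c2 rests mostly on its transcript Ly6c2-202, annotated as a retained intron, which had 76.8%. Ly6c1 shared 581 of its 31-mers with Ly6c2, which is 33.0% of its own, and 276 with Ly6a, which is 21.9% of those of Ly6a. Reads of Ly6a, Ly6c1 and Ly6c2 can therefore be split between these genes by the counting, and each of the 3 single values is uncertain to that extent. Ly6e stood apart, and the pseudogene Ly6e-ps1, with 15, was the single gene that had 10 or more 31-mers in common with it.

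Levels of Ly6a, Ly6c1 and Ly6e were higher in every corticosterone library than in every medium library. Ly6a had 482, 485, 458 and 469 CPM in corticosterone libraries 1 to 4, against 232, 232, 222 and 237 CPM in medium libraries 1 to 4. The mean was 473 ± 12.6 CPM with corticosterone and 231 ± 6.21 CPM in medium (SD, n = 4 each). The log2 fold change of Ly6a was 1.04 ± 0.03 (SE, edgeR), a 2.05-fold higher level. Ly6a lies at chr15:74994877-74998031 on the minus strand of GRCm38.

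Ly6c1 had 211, 209.6, 194 and 198 CPM with corticosterone and 98.1, 98.9, 98.2 and 101 CPM in medium. Its means were 203 ± 8.63 CPM with corticosterone and 98.9 ± 1.15 CPM in medium (SD, n = 4 each). The 4 medium libraries were almost at one level, and the corticosterone libraries fell into replicates 1 and 2 above replicates 3 and 4. The log2 fold change of Ly6c1 was 1.04 ± 0.03 (SE), the same as that of Ly6a to the 2 decimals given. The gene spans chr15:75044018-75048830 on the minus strand.

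Ly6e had the smallest fold change of the 4 genes. It had 538, 536, 523 and 511 CPM with corticosterone and 328, 330.4, 312 and 325 CPM in medium. The means were 527 ± 12.5 CPM with corticosterone and 324 ± 8.44 CPM in medium (SD, n = 4 each), a log2 fold change of 0.70 ± 0.03 (SE) or 1.63-fold. No corticosterone library overlapped the medium libraries. Ly6e, at chr15:74955051-74959905 on the plus strand, is the member whose counts depend least on shared sequence.

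Ly6c2 was counted far more rarely. It had 2.72, 2.44, 2.76 and 3.43 CPM in corticosterone libraries and 1.59, 1.21, 1.71 and 1.32 CPM in medium libraries. The means were 2.84 ± 0.42 CPM with corticosterone and 1.46 ± 0.23 CPM in medium (SD, n = 4 each). The groups did not overlap, but the log2 fold change of 0.96 carried an SE of 0.17, against 0.03 for the other 3 genes. Ly6c2 spans chr15:75108158-75111970 on the minus strand.

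**Figure D1:**
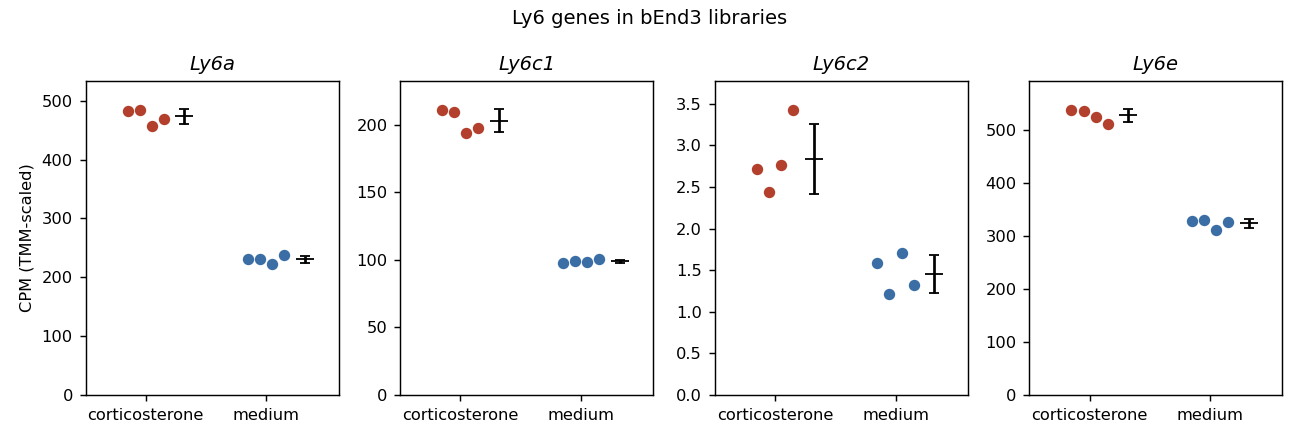
CPM (y axis, linear and starting at 0, one scale per gene) of Ly6a, Ly6c1, Ly6c2 and Ly6e in the 4 corticosterone libraries and the 4 medium libraries, with the replicates from left to right and the group mean ± SD beside them. For each gene the corticosterone points sit above all medium points, from 458 to 485 CPM against 222 to 237 CPM for Ly6a and from 2.44 to 3.43 CPM against 1.21 to 1.71 CPM for Ly6c2.

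All 4 genes passed the edgeR threshold in the higher direction (adjusted p under 0.05 over all tested genes), as did 19.5% of all tested genes. All 4 had groups that did not overlap with corticosterone above, as did 19.3% of all tested genes. Nothing is read from these counts, because the genes were picked from this contrast. The median log2 fold change over all 13272 tested genes was -0.0046, with a 5th percentile of -0.53 and a 95th percentile of 0.83. In bulk RNA a change in the number of cells that express a gene and a change in RNA per cell cannot be told apart.

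The estimated counts were then added over the 4 genes, a sum that no longer depends on how reads were split among them. The sum was 1234, 1233, 1177 and 1181 CPM with corticosterone and 659, 662, 634 and 664 CPM in medium. It made up 0.117% to 0.121% of all estimated counts with corticosterone and 0.0639% to 0.0673% in medium. The log2 fold change of the sum was 0.88 ± 0.03 (SE), or 1.84-fold, and no library of one group reached the other. When only the 3 genes that share sequence (Ly6a, Ly6c1 and Ly6c2) were joined into 1 row, their log2 fold change was 1.04.

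The make-up of the sum, in counts not corrected for length, also differed between the groups. Ly6e contributed 43.3% to 44.4% of it with corticosterone and 49.0% to 49.9% in medium. Ly6a contributed 38.9% to 39.7% with corticosterone and 35.0% to 35.7% in medium, and Ly6c1 16.5% to 17.1% with corticosterone and 14.9% to 15.5% in medium. Each of these 3 shares kept the groups apart, with Ly6e lower and Ly6a and Ly6c1 higher with corticosterone. Ly6c2 stayed between 0.18% and 0.29% in all libraries.

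Corticosterone replicates 1 and 2 were quantified differently from the other 6 libraries. In both, kallisto's effective length (the length over which reads can start) was the transcript length plus 1 in 100% of transcripts of 1000 nt or more, whereas in the other 6 libraries it was 340.4 to 360.3 nt shorter. Without these 2 libraries, the log2 fold change was 1.01 for Ly6a, 0.99 for Ly6c1, 1.08 for Ly6c2, 0.68 for Ly6e and 0.85 for the sum. Replicates 3 and 4 alone thus gave a difference of nearly the same size from the 4 medium libraries. The SE of these values was 0.03 for Ly6a, Ly6c1, Ly6e and the sum, and 0.19 for Ly6c2.

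The shares of the annotated transcripts also stood apart in these 2 libraries. Ly6a has 6 annotated transcripts, and Ly6a-204 led it with 58.3% to 59.5% of its estimated counts in the 6 libraries quantified alike. In corticosterone replicate 1, Ly6a-201 held 96.5% and Ly6a-204 none, and in replicate 2 Ly6a-204 held 69.6%. For Ly6c1, transcript Ly6c1-201 held 75.2% to 78.8% in the 6 libraries, against 5.24% in corticosterone replicate 1, where Ly6c1-202 held 92.2%, and 35.7% in replicate 2. For Ly6e, transcript Ly6e-215 held 78.0% to 79.0% in the 6 libraries, 95.3% in corticosterone replicate 1 and 51.0% in replicate 2.

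The 2 differing libraries thus disagreed with each other as well as with the rest at the level of transcripts, whereas the gene totals of all 4 corticosterone libraries lay within 458 to 485 CPM for Ly6a, 194 to 211 CPM for Ly6c1 and 511 to 538 CPM for Ly6e. Among the 6 libraries quantified alike, the leading transcript kept its share with and without the hormone. Ly6a-204 held 59.2% and 59.5% of Ly6a in corticosterone replicates 3 and 4, and 58.3% to 59.4% in medium. Ly6c1-201 held 77.7% and 76.9% of Ly6c1 in those 2 libraries and 75.2% to 78.8% in medium, and Ly6e-215 held 78.8% and 78.6% of Ly6e and 78.0% to 79.0% in medium.

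**Figure D2:**
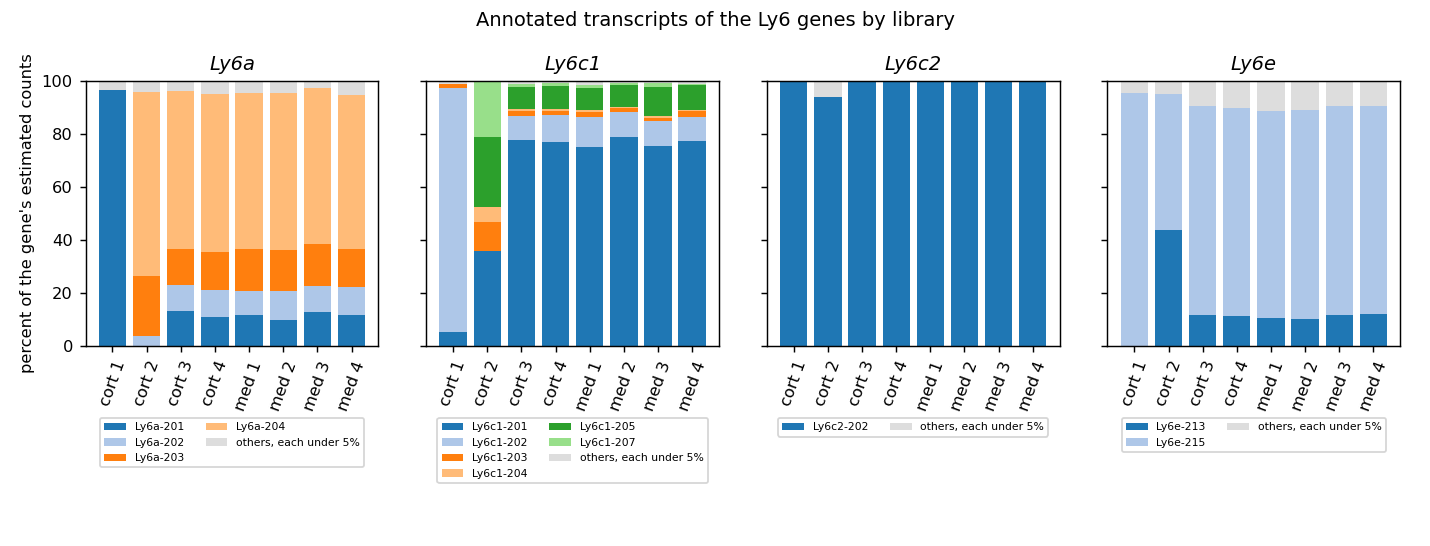
Share of each gene's estimated counts (y axis, percent) that kallisto gave to each annotated transcript in the 4 corticosterone libraries (cort) and the 4 medium libraries (med); transcripts under 5% in every library are grey. Corticosterone 1 and 2 differ from the other 6 bars, for example with 96.5% on Ly6a-201 in corticosterone 1, whereas corticosterone 3 and 4 match the medium bars.

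The transcripts of Ly6c2 go against the label of a surface protein. Its transcript Ly6c2-202, 2680 nt long and annotated as a retained intron, received 513.9 of the estimated counts over all libraries, and its 3 protein-coding transcripts received 4.11, all of them in corticosterone replicate 2. By library, Ly6c2-202 had 85.8, 62.4, 90.6 and 95.4 estimated counts with corticosterone and 74.9, 33.1, 33.5 and 38.3 in medium. These data therefore hold almost no reads that were assigned to the Ly6c2 messenger RNA. Of the 31-mers of Ly6c2-202, 76.8% were in no other gene's annotated transcripts. Whether that intron sequence also occurs in introns of Ly6c1 was not tested.

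Levels of different genes can be set side by side only per length, for which the deposited TPM were used. In medium the order was Ly6e at 661 to 713 TPM, Ly6a at 531 to 587 TPM, Ly6c1 at 325 to 337 TPM and Ly6c2 at 0.70 to 0.95 TPM, and no neighbours in that order overlapped. With corticosterone, Ly6a had 1077, 934, 1091 and 1139 TPM and Ly6e had 873, 1134, 1094 and 1066 TPM in replicates 1 to 4, so these 2 genes were no longer apart. Ly6c1 followed at 466, 619, 623 and 638 TPM and Ly6c2 at 1.86, 1.83, 1.55 and 1.93 TPM. TPM of replicates 1 and 2 rest on other effective lengths and other transcript shares. Recomputed with one effective length per transcript, Ly6c1 had 470 and 896 TPM and Ly6e 738 and 1236 TPM in replicates 1 and 2, so these 2 libraries still stood apart from each other. In replicates 3 and 4 Ly6a was 1091 and 1139 TPM and Ly6e 1094 and 1066 TPM. On the log2(TPM + 0.5) scale (limma) the difference between the groups was 0.90 for Ly6a, 0.82 for Ly6c1, 0.78 for Ly6c2 and 0.58 for Ly6e, each smaller than on counts. For Ly6c2 this turned with the pseudocount, since at log2(TPM + 0.1) the difference was 1.02, against 0.96 on counts.

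The likeness of the members to each other and to other genes was measured as the root mean square difference of log2(CPM + 0.5), each gene centred on its mean over the 8 libraries. Ly6a and Ly6c1 differed by 0.024, and of 11091 genes compared 1 was nearer to Ly6a and 0 were nearer to Ly6c1. That gene was Itpr2, an intracellular calcium release channel, at 0.022 from Ly6a, with 66.7 ± 0.745 CPM with corticosterone and 32.5 ± 1.00 CPM in medium. The next nearest to Ly6a were Plxna2, a semaphorin receptor (0.038), and Slc38a2, an amino acid transporter (0.040). Ly6c1 had the same first 2 genes in the other order, Plxna2 (0.033) and Itpr2 (0.036), followed by the integrin subunit gene Itga3 (0.040). The part of the 276 31-mers shared by Ly6a and Ly6c1 in their own likeness was not tested.

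Ly6e was nearest to Lipa, the lysosomal acid lipase (0.029), Calcrl, the receptor of adrenomedullin and calcitonin gene-related peptide (0.029), and the histone deacetylase gene Hdac5 (0.031). Ly6e was 0.169 from Ly6a and 0.170 from Ly6c1. Ly6c2 was nearest to Emp2 at 0.108, Map3k8 at 0.118 and Dync1i1 at 0.118. All these distances are descriptions over the same 8 libraries that chose the members, and they mostly measure an equal difference between the 2 groups.

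The members lie within 884.6 kb of chromosome 15, between Psca and Gpihbp1 (chr15:74714839-75599481), where the table has 25 protein-coding genes. Of these, 10 had 0 counts in all libraries and 11, the 4 members included, were tested. Ly6e, Ly6a, Ly6c1 and Ly6c2 follow each other from low to high coordinates, with Ly6i between Ly6e and Ly6a.

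Of the 7 tested genes of the stretch that are not members, Gpihbp1, Ly6f and Them6 rose and the other 4 did not pass. Gpihbp1, which carries lipoprotein lipase to the lumen of capillaries, had 25.5, 21.4, 22.6 and 24.2 CPM with corticosterone and 11.9, 12.8, 12.2 and 11.6 CPM in medium. Its groups were well apart, with a log2 fold change of 0.95 ± 0.06 (SE, edgeR adjusted p = 7.90e-08). Ly6f had 1.27, 1.77, 1.37 and 1.77 CPM with corticosterone and 0.742, 0.810, 0.553 and 0.592 CPM in medium, a log2 fold change of 1.17 ± 0.22 (SE, edgeR adjusted p = 8.01e-04). Them6 had 8.51 ± 0.170 CPM with corticosterone and 5.96 ± 0.504 CPM in medium, a log2 fold change of 0.51 (SD, n = 4 each, edgeR adjusted p = 1.71e-04). Gpihbp1, Ly6f and Them6 each share fewer than 10 31-mers with any of the 4 members. Among all tested genes, 40.1% passed in either direction, 19.5% in the higher and 20.6% in the lower one.

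The remaining genes of the stretch were low or did not pass. Ly6i, which shares 106 of its 31-mers (9.17%) with Ly6a, had 0.380, 0.406, 0.364 and 0.397 CPM with corticosterone and 0.297, 0.147, 0.101 and 0.139 CPM in medium (log2 fold change 1.04 ± 0.39 SE, edgeR adjusted p = 0.0534). Lynx1, a modulator of nicotinic acetylcholine receptors, had 6.65 ± 0.725 CPM with corticosterone and 6.28 ± 0.700 CPM in medium (SD, n = 4 each, edgeR adjusted p = 0.587). Ly6h had 0.404 ± 0.0972 CPM with corticosterone and 0.579 ± 0.0639 CPM in medium (SD, n = 4 each, edgeR adjusted p = 0.167). Ly6g, a marker of neutrophils, was too low to be tested, with 13.1 estimated counts over the corticosterone libraries and 46 over the medium libraries.

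**Figure D3:**
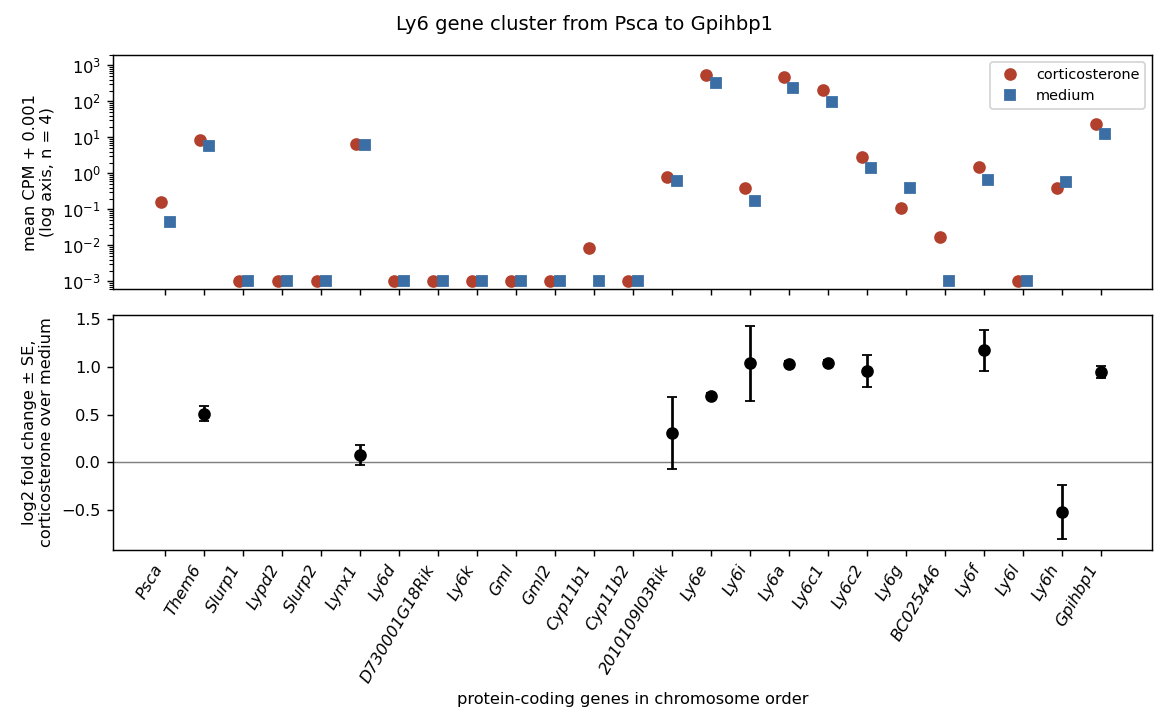
Protein-coding genes from Psca to Gpihbp1 in chromosome order (x axis). The upper panel gives the mean CPM + 0.001 on a log axis in corticosterone and medium libraries (n = 4 each; genes with 0 counts sit at the bottom), and the lower panel the log2 fold change ± SE of the 11 tested genes. Ly6i, Ly6a, Ly6c1, Ly6c2, Ly6f and Gpihbp1 lie between 0.95 and 1.17.

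Promoters are shown for Ly6c1 and Ly6c2, the pair with near-identical coding sequences. The gene counts of both were higher with corticosterone, but those of Ly6c2 lay almost wholly on its retained intron transcript. The windows run from 250 bases before to 50 bases after a start site of each gene (the outermost one listed) and are from RefSeq on GRCm38.p6. They are chr15:75048788-75049087 for Ly6c1 and chr15:75111922-75112221 for Ly6c2, both on the minus strand. Capitals mark bases that differ between the 2 windows or have no counterpart in the other. Ly6a and Ly6e had no entry in the table used.
Ly6c1 promoter: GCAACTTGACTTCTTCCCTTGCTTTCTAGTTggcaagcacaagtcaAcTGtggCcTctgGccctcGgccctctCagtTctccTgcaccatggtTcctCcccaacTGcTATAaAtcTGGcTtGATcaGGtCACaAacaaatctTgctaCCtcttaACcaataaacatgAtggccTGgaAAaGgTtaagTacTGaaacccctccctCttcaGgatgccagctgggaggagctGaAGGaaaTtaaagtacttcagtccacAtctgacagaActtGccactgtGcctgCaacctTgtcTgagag
Ly6c2 promoter: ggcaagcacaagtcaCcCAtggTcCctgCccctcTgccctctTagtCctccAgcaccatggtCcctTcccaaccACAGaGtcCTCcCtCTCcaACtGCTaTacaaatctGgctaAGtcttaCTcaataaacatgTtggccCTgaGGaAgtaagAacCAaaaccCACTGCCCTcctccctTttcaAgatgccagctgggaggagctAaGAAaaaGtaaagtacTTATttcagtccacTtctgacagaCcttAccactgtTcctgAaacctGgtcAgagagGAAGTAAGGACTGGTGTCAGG

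Of 266 aligned bases 208 were identical (78.2%), a lower share than in the coding sequence (97.7%). In each window 34 bases faced a gap, many of them at an end because the 2 windows are offset, so the gaps are no measure of likeness. Each of 4 motifs was searched on both strands. The full glucocorticoid receptor palindrome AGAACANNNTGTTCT was in neither window and in 0.00913% of 32851 promoter windows of the same length. The glucocorticoid half-site AGAACA, which is part of that palindrome, was in neither window and in 19.0% of all windows. The interferon-stimulated core GAAANNGAAA and the STAT site TTCNNNGAA were in neither window and in 3.44% and 8.30% of all windows. These counts say only that the letters are not in these 300 bases.

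Beyond the 4 members, a list of 45 other genes of the wider Ly6/uPAR family was examined, of which 40 were in the table and 10 were tested. Gpihbp1 and Ly6f rose, Plaur fell and 7 did not pass, against 40.1% of all tested genes called in either direction, and the median log2 fold change of the 10 was -0.0013, close to that of all tested genes. Plaur, the receptor of urokinase, had 78.7 ± 2.19 CPM with corticosterone and 88.1 ± 4.62 CPM in medium, a log2 fold change of -0.16 (SD, n = 4 each, edgeR adjusted p = 0.00371). Cd59a, an inhibitor of the complement membrane attack complex, had 21.4 ± 2.47 CPM with corticosterone and 19.3 ± 1.49 CPM in medium (SD, n = 4 each, edgeR adjusted p = 0.197). Without corticosterone replicates 1 and 2, Cd59a passed (log2 fold change 0.27, edgeR adjusted p = 0.00301), as did 36.4% of the genes tested in those 6 libraries. Cd59b, Ly6g6d and Ly6g5b were at 1.07, 1.87 and 0.331 CPM with corticosterone and 1.13, 1.98 and 0.408 CPM in medium, and none of them passed.

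Ly6 proteins need the GPI anchor, so the genes that build and attach it were counted. Of 28 tested genes of that list, 4 rose, 1 fell and 23 did not pass, a share of calls under the 40.1% of all tested genes. The changes were small, with a median log2 fold change of 0.06. Pigw, an acyltransferase of the pathway, had 11.98 ± 0.789 CPM with corticosterone and 9.23 ± 0.455 CPM in medium, a log2 fold change of 0.37 (SD, n = 4 each, edgeR adjusted p = 5.52e-04). Pigk, a subunit of the transamidase that attaches the anchor, fell to 114.5 ± 2.43 CPM with corticosterone, against 129 ± 4.02 CPM in medium (SD, n = 4 each, log2 fold change -0.17, edgeR adjusted p = 3.20e-04). Pigs, Pigg and Pgap2 also rose, with log2 fold changes of 0.14, 0.15 and 0.14, and Pgap2 lost its call without corticosterone replicates 1 and 2 at a log2 fold change of 0.13 (edgeR adjusted p = 0.0864).

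Genes of other GPI-anchored proteins moved in both directions. Of 27 tested, 8 rose, 10 fell and 9 did not pass, against 19.5% called higher and 20.6% called lower among all tested genes. The median log2 fold change was -0.17, and that of all tested genes -0.0046. Cd24a, a small sialoglycoprotein, had 24.8 ± 1.79 CPM with corticosterone and 7.23 ± 0.480 CPM in medium, a log2 fold change of 1.78 (SD, n = 4 each, edgeR adjusted p = 5.52e-10). The complement regulator Cd55 rose by 0.67 and the prion protein gene Prnp by 0.48 on the log2 scale (edgeR adjusted p = 8.44e-08 and 9.87e-08). The glypican Gpc6 fell by 1.58 and the adhesion protein gene Negr1 by 1.40 on the log2 scale (edgeR adjusted p = 2.57e-10 and 6.09e-09).

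The receptors and signalling genes of interferon were listed because Ly6a and Ly6e are interferon-inducible. Of 20 tested, 5 rose, 4 fell and 11 did not pass, near the share of all tested genes, and the median log2 fold change was -0.03. Ifngr2 rose by 0.45, whereas Jak2 fell by 0.33, Irf7 by 0.35 and Socs3 by 0.78 on the log2 scale (edgeR adjusted p = 6.43e-07, 5.61e-06, 0.0129 and 1.26e-05). Ifnar1 had 123 ± 2.29 CPM with corticosterone and 121 ± 2.51 CPM in medium (SD, n = 4 each, edgeR adjusted p = 0.477).

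**Figure D4:**
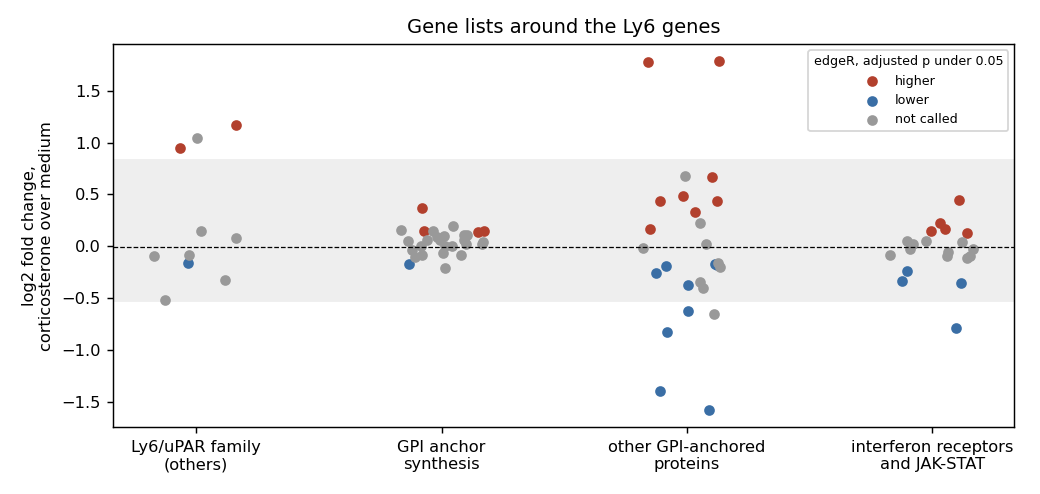
Log2 fold change of corticosterone over medium (y axis) of each tested gene in 4 gene lists (x axis, points spread sideways); colours mark the edgeR call and the grey band runs from the 5th to the 95th percentile of all tested genes (-0.53 to 0.83). GPI anchor synthesis genes lie near 0, other GPI-anchored protein genes spread widely both ways, and Gpihbp1 and Ly6f are the called points above the band in the first list.

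Depth and cell identity were examined for all libraries. Total estimated counts were 27.7 to 33.2 M with corticosterone and 19.7 to 46.2 M in medium (M is 1e+06). Ly6c2 had 62.4 to 95.4 estimated counts of its leading transcript in a corticosterone library and 33.1 to 74.9 in a medium library, so its values are the least precise of the 4. Fkbp5, a direct glucocorticoid target, had 269 ± 3.06 CPM with corticosterone and 39.4 ± 1.92 CPM in medium (SD, n = 4 each, edgeR adjusted p = 6.33e-14). Of 20 brain endothelial markers 16 were at 1 CPM or more. Of the 16 tested 7 rose, 5 fell and 4 did not pass, against 19.5% called higher and 20.6% called lower among all tested genes. The endothelial markers Cdh5 and Cldn5 rose to 1985 and 1241 CPM with corticosterone, against 1867 and 939.8 CPM in medium (edgeR adjusted p = 0.0114 and 1.16e-07). Without corticosterone replicates 1 and 2, Cdh5 lost its call (log2 fold change 0.07, edgeR adjusted p = 0.113). Pecam1 fell to 1575 CPM with corticosterone, against 1673 CPM in medium (edgeR adjusted p = 0.0236). The 16 leukocyte markers summed to 2.46 to 2.96 CPM with corticosterone and 2.56 to 3.52 CPM in medium, and the defining markers Ptprc and Itgam were at 0.127 CPM or less in each library. The 6 fibroblast markers summed to 5.74 to 6.69 CPM with corticosterone and 19.9 to 22.0 CPM in medium. Only 2 of them had a mean of 1 CPM or more, and the 2 tested both fell. The fibroblast difference ran opposite to that of the Ly6 genes, and its part in the result was not tested. The 9 pericyte and smooth muscle markers summed to 4.06 to 6.13 CPM with corticosterone and 5.67 to 7.08 CPM in medium. Of 4 tested, 2 fell and 2 did not pass. Of the 10 neural and glial markers 2 were tested, and these did not pass.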

How the data were processed

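Per the labels, the 8 libraries were directional and made from poly(A)-selected RNA. The submitters' processing notes name bcl2fastq, kallisto 0.46.1, mm10 and GRCm38, and no source used here gives the index, read length or strand setting. Estimated counts per gene, without normalization, were deposited as 1 table for the series, together with, for each library, a transcript table whose columns hold, per the file headers, an estimated count, a TPM and an effective length. Transcripts were joined to genes through GENCODE M21, and 35773 of 35852 gene identifiers matched a symbol. The members and all lists were chosen with earlier results of these data known.

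The test was edgeR 4.0.16 under R 4.3.3 on rounded estimated counts (filterByExpr, TMM, robust quasi-likelihood F test, no term but the group). A gene was called at a Benjamini-Hochberg adjusted p under 0.05 over 13272 tested genes. A p-value reflects only how these samples spread, which may be technical. CPM are per 1e+06 of the TMM-scaled library, means are ± SD over 4 libraries, and the SE is the log2 fold change divided by the square root of F. Within-group library pairs differed by more than sampling noise. Chi-square per degree of freedom was 47.0 to 102 for pairs with corticosterone replicate 1 or 2, which were quantified differently, and 2.18 to 4.88 for all others. Each library was counted once, and these values cannot tell separate cultures from technical repeats. Depth was 19.7 to 46.2 M estimated counts (M is 1e+06), and a gene's precision follows its own count.

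Alternatives were 6 libraries, library size scaling, DESeq2 1.42.0, no filter, a replicate block, a term for corticosterone replicates 1 and 2, limma 3.58.1 on log2 TPM (pseudocounts 0.5 and 0.1), TPM recomputed with one effective length, each library left out, and genes joined where they had 10% or more of the smaller one's 31-mers in common. The method was tested on simulated counts of independent libraries with one spread for all genes. That simulation did not include the different quantification of corticosterone replicates 1 and 2. Genes named besides the members are tested genes of the Ly6/uPAR list and of the chromosome 15 stretch, of each other list the called genes with the smallest p (up to 4 in each direction) and up to 3 genes not called with the highest mean CPM, the 3 genes most like each member, and a few context genes fixed by name. A gene that this rule takes is not reported here, and the counts of list members include it.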

Additional observations from a re-analysis of the deposited data

Results flagged for a closer look

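Among 50 genes of the lists and members, 100 groups of 4 libraries were searched for a single library far from its group, and 4 were found. Chance alone flags about 1 in 20 groups. None of the 4 members was among them. The GPI-anchored ephrin gene Efna5 had 11.3 CPM in corticosterone replicate 3, above 10.0026 to 10.0102 CPM in the other 3 corticosterone libraries. Pigq, a gene of GPI anchor synthesis, had 153 CPM in corticosterone replicate 4, below 165 to 167 CPM in the other 3. Raet1e had 28.9 CPM in corticosterone replicate 2, below 38.5 to 39.3 CPM in the other 3. Sema7a had 38.3 CPM in corticosterone replicate 3, above 33.2 to 34.0 CPM in the other 3.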

How the results depend on the processing

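No log2 fold change of a member or of the sum changed sign under any alternative. The balance of higher and lower calls did turn in some lists. Interferon signalling genes went from 5 higher and 4 lower to 0 and 2 with one effective length (limma). Other GPI-anchored genes went from 8 higher and 10 lower to 11 and 9 without corticosterone replicates 1 and 2. On counts, each member's log2 fold change stayed close to the reported value under every alternative: 1.01 to 1.05 for Ly6a, 0.99 to 1.06 for Ly6c1, 0.86 to 1.08 for Ly6c2, 0.67 to 0.72 for Ly6e and 0.85 to 0.90 for the sum of 4. Of these, Ly6c1 moved by more than its replicate SD at 0.99 without corticosterone replicates 1 and 2 and at 0.99 with a term for them. With the replicate number as a block the value was 1.04 for Ly6a, 1.04 for Ly6c1, 0.96 for Ly6c2, 0.70 for Ly6e and 0.88 for the sum. Same-numbered libraries did not deviate together (r from -0.088 to 0.027). The different quantification of corticosterone replicates 1 and 2 enters the corticosterone deviations, so these values cannot decide whether the numbers are a pairing. The block called 4913 genes in all and 2 GPI anchor synthesis genes lower in place of 1.

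On TPM the values were smaller except that of Ly6c2 at a pseudocount of 0.1, and the cause was not tested. With deposited TPM at pseudocounts 0.5 and 0.1 they were 0.90 and 0.90 for Ly6a, 0.82 and 0.82 for Ly6c1, 0.58 and 0.58 for Ly6e and 0.76 and 0.76 for the sum, and 0.78 and 1.02 for Ly6c2, against 0.96 on counts. With one effective length per transcript they were 0.90 for Ly6a, 0.96 for Ly6c1, 0.58 for Ly6c2, 0.55 for Ly6e and 0.79 for the sum. Calls over all genes numbered 1711 and 1701 on deposited TPM and 1194 with one effective length, against 5327 on counts. On deposited TPM (limma, both pseudocounts alike), 0 other family genes were lower (2 at an unadjusted p under 0.05), 1 GPI anchor synthesis gene was higher and 0 lower (5 and 1 unadjusted), 5 other GPI-anchored genes were lower, and 2 interferon signalling genes were higher and 1 lower. With one effective length (limma), 0 other family genes were lower (1 unadjusted), 0 GPI anchor synthesis genes were higher and 0 lower (0 and 2 unadjusted), 2 other GPI-anchored genes were higher and 6 lower, and 0 interferon signalling genes were higher (1 unadjusted) and 2 lower.

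With library size scaling 2 GPI anchor synthesis genes were lower, and with no filter 2 other family genes were lower. Leaving out each library in turn gave 1 to 3 GPI anchor synthesis genes lower, with 3 without corticosterone replicate 3. Depth limits Ly6c2, Ly6f, Ly6i, Ly6g and Ly6h, which had fewer than 100 counts in each library. Ly6f, although called, had 182 counts over all corticosterone libraries and 85 over all medium libraries.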
